A study of Homo sapiens with 18 samples.

Results

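The genes of the cyclin-dependent kinase (CDK) inhibitors were examined by RNA-seq in U2OS, a line of human osteosarcoma cells that retains wild-type p53. The 8 genes were chosen by name: the CIP/KIP inhibitors CDKN1A, CDKN1B and CDKN1C, the INK4 inhibitors CDKN2A, CDKN2B, CDKN2C and CDKN2D, and CDKN3, a phosphatase that acts on CDKs. Of these, 7 were present in each of the 6 deposited comparison tables, which have 22738 genes in common and 26702 genes in all. CDKN2A has no row in the tables and was not analysed here.

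U2OS cells had received siControl, siANKRA2 or siRFXANK, and each transfection was followed in DMSO and in 10 µM Nutlin-3a, both for 24 h. This gives 6 groups of 3 samples, 18 in all, and all of them carry an siRNA and come from the same cell line. Nutlin-3a blocks the binding of p53 by MDM2 and so stabilises p53. ANKRA2 and RFXANK are related ankyrin repeat proteins, and RFXANK binds RFX transcription factors. Whether more than 1 siRNA was used for a gene is not given in the sources used here. The siRFXANK samples were labelled as bone, epithelial cells and wild-type, which the other samples were not, and have no siControl samples of their own. In siRFXANK over siControl, what siRFXANK did and what separates these sets of samples otherwise cannot be told apart.

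The libraries were made from polyadenylated RNA. The tables hold comparisons between groups and no values per library, so the depth of each sample is unknown and each value below belongs to a group of 3. Nothing says that the 3 came from separate cultures. The p-values measure the spread between the samples that the authors fitted, which need not be that between cultures. ANKRA2 was at 0.285 of its siControl level in siANKRA2 cells under DMSO and at 0.167 under Nutlin-3a, and RFXANK in siRFXANK cells at 0.129 and 0.112. RFX7, an RFX transcription factor, was at 0.655 and 0.580 after siANKRA2, and at 0.729 and, not called, 1.01 after siRFXANK. The direction of the siRFXANK tables was read from that fall of RFXANK, while for siANKRA2 it is fixed by the agreement of the 4 tables among siControl and siANKRA2 groups. Of 6 listed bone and mesenchymal genes, VIM and COL1A1 are given here. Their deposited mean was 55026 normalized counts for VIM and 64042 for COL1A1. Deposited means are pooled over the samples of the authors' fit and are not levels of these groups. Of 6 listed epithelial genes, KRT8 and KRT18 had 21456 and 12960, whereas CDH1 had 32.9 and KRT19 1.67. Of 4 blood genes, 1 had a row, PTPRC, with 3.81.

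CDK inhibitors stop the cell cycle at the protein level. CIP/KIP proteins bind complexes of cyclins with CDK2 and other CDKs, whereas INK4 proteins bind CDK4 and CDK6 and keep D-type cyclins from activating them. Both keep the pocket proteins of the RB family in their active form, in which they restrain E2F factors and genes needed for DNA replication and mitosis. CDKN1A encodes p21 and is the classical p53 target gene of the family. CDKN3 differs from the others, since it removes an activating phosphate from CDKs and is itself expressed with the genes of mitosis.

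The start sites of CDKN1A and CDKN3, the member that was raised by Nutlin-3a and a member that was lowered in each transfection, are shown to place the genes in the genome. CDKN1A is annotated at chr6:36676460-36687339 and CDKN3 at chr14:54396849-54420218, both on the plus strand (hg38, GENCODE 29). The RefSeq sequence before the start (GRCh38.p14) is printed from 250 bases upstream to the last base before an annotated UTR, which leaves 194 bases for CDKN1A (chr6:36678464-36678657) and 198 for CDKN3 (chr14:54396757-54396954). The CDKN1A stretch lies wholly within the annotated gene and the CDKN3 stretch partly, since both annotated genes begin before these RefSeq starts. Capitals mark matches on either strand to the GC box GGGCGG, the CCAAT box CCAAT, the cell cycle homology region TTTGAA and TATAAA.
CDKN1A: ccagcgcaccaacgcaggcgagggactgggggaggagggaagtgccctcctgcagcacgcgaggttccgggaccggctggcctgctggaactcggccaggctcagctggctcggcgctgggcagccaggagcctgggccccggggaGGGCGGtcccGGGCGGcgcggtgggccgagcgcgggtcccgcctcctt
CDKN3: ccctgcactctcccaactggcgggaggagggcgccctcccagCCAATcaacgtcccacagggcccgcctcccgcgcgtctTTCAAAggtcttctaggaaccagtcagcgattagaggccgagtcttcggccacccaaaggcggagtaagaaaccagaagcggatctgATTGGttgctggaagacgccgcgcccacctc
The CDKN1A stretch holds 2 GC boxes, which start 104 and 94 bases before the RefSeq start. A further 2, which overlap each other, start at 45 and 40 bases, in the part of the window that is not printed. CDKN3 holds no GC box in its 250 bases but a pair of CCAAT boxes, at 208 and 83 bases, and 1 TTTGAA match on the minus strand at 170 bases. Over 35116 RefSeq windows of 250 bases, 42.6% hold a GC box, 32.0% a CCAAT box, 13.3% TTTGAA and 10.7% TATAAA. The matches are letters in a window and were not tested as binding sites. CDKN1C has no entry in the promoter table.

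CDKN1A was the most abundant member in the treated cells and one of the 2 most abundant in untreated cells. Group means were recovered from the fold changes and standard errors of the tables, on the scale of normalized counts, and are approximate. Per kilobase of exon, the recovered siControl level under DMSO was 1994 for CDKN3, 1847 for CDKN1A, 641 for CDKN1B, 364 for CDKN2C, 188 for CDKN2D, 52.5 for CDKN1C and 9.33 for CDKN2B. Under Nutlin-3a, CDKN1A stood at 17766 per kilobase in siControl cells and CDKN3 followed with 642. CDKN2B, which encodes the INK4 protein p15, was the least abundant of the tested members. Its recovered mean lay between 15.7 and 37.9 normalized counts in every group, and its intervals are wide.

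**Figure D1:**
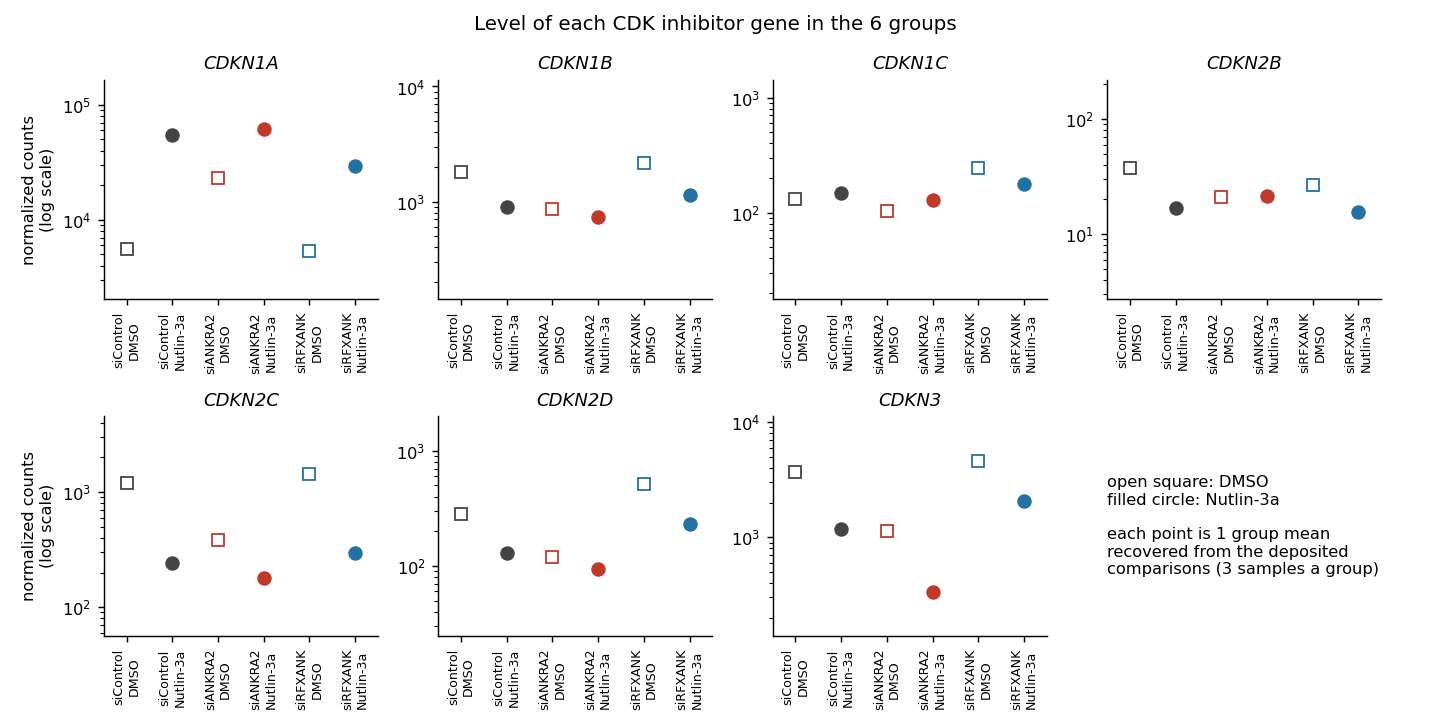
Recovered group mean of each of the 7 genes in normalized counts, on a log axis that spans the same ratio in each panel, for the 6 groups of 3 samples (open squares DMSO, filled circles Nutlin-3a). CDKN1A ranged from 5411 in siRFXANK cells under DMSO to 62129 in siANKRA2 cells under Nutlin-3a, and CDKN3 from 336 to 4623.

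The first comparison asks how CDK inhibitor genes respond to p53 activation in control cells. CDKN1A rose and the other called members fell. Its recovered mean was 5633 normalized counts in siControl cells under DMSO and 54185 under Nutlin-3a, a rise of 9.62-fold (95% interval 9.12 to 10.2) on a log2 fold change of 3.27 (SE 0.04, DESeq2 adjusted p deposited as 0, too small for the number format). The largest fall was that of CDKN2C, which encodes the INK4 protein p18. Its mean was 1207 under DMSO and 244 under Nutlin-3a, a log2 fold change of -2.31 (SE 0.10, DESeq2 adjusted p = 5.7e-123), so that it fell 4.95-fold. CDKN3 went from 3661 to 1179 (3.11-fold lower), CDKN1B, which encodes p27, from 1802 to 892 (2.02-fold lower), CDKN2D, which encodes the INK4 protein p19, from 283 to 129 (2.19-fold lower) and CDKN2B from 37.9 to 17.0 (2.23-fold lower). CDKN1C, which encodes p57 and is known as an imprinted gene, did not pass the test, with a log2 fold change of 0.18 (95% interval -0.08 to 0.44, DESeq2 adjusted p = 0.3). Thus 1 of 7 members was called higher and 5 lower at a DESeq2 adjusted p under 0.05, where 21.9% of all genes were called higher and 21.2% lower. The members had a median log2 fold change of -1.13, against 0.02 over all genes tested.

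In siANKRA2 cells the same treatment moved CDKN1A less. Its mean was 23233 normalized counts under DMSO and 62129 under Nutlin-3a, a rise of 2.67-fold (95% interval 2.54 to 2.82, DESeq2 adjusted p = 4.0e-296). CDKN3 went from 1125 to 336, the lowest level of that gene in any group, and fell 3.35-fold. CDKN2C fell 2.16-fold, from 384 to 178, and CDKN1B 1.16-fold, from 857 to 741. CDKN2D was at 119 and 94.4 and did not pass the test (log2 fold change -0.33, DESeq2 adjusted p = 0.058), although it did when only genes with a mean of at least 10 entered the adjustment. CDKN1C (0.31, DESeq2 adjusted p = 0.088) and CDKN2B (0.01, DESeq2 adjusted p = 0.99) did not pass it either. These are 1 member called higher and 3 lower, where 15.5% of all genes were called higher and 17.0% lower.

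The response of siRFXANK cells has no table of its own and was derived from the siControl response and both siRFXANK over siControl tables. CDKN1A rose 5.45-fold (95% interval 5.16 to 5.75), from 5411 to 29485 normalized counts. CDKN2C fell 4.85-fold, from 1434 to 296, and CDKN3 2.23-fold, from 4623 to 2077. CDKN2D fell 2.22-fold, from 518 to 233, and CDKN1B 1.93-fold, from 2183 to 1133. CDKN1C, not called in the other transfections, fell 1.36-fold here, from 242 to 178 (Wald test, Benjamini-Hochberg adjusted p = 0.0012), a call that was lost when all 3 squared errors were summed. CDKN2B did not pass the test (0.077). With 1 member called higher and 5 lower, the counts are those of siControl cells, and 22.8% of all genes were called higher and 22.5% lower.

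**Figure D2:**
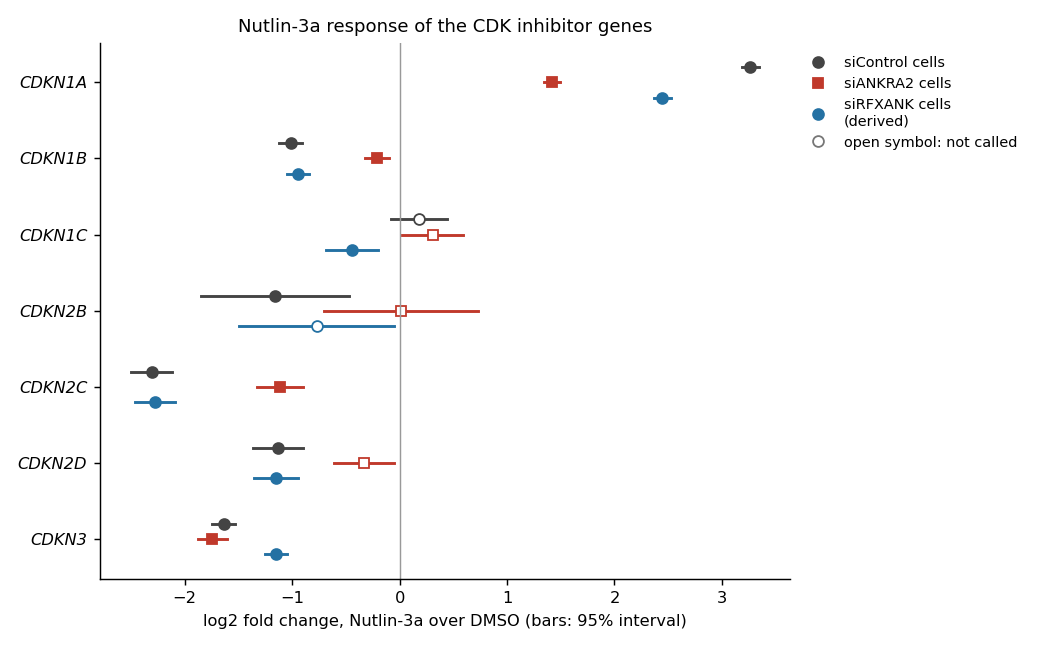
Log2 fold change of Nutlin-3a over DMSO for each member in siControl, siANKRA2 and siRFXANK cells, with bars for the 95% interval and open symbols where the adjusted p was 0.05 or more. CDKN1A lies at 3.27, 1.42 and 2.45, while CDKN3 lies below 0 in all 3 transfections.

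Whether a response differed from that of siControl cells was tested on the difference of the log2 fold changes itself, with a 2-sided Wald test adjusted over all genes. For CDKN1A the difference was -1.85 in siANKRA2 cells (95% interval -1.95 to -1.74, adjusted p = 9.3e-242) and -0.82 in siRFXANK cells (95% interval -0.93 to -0.71, adjusted p = 2.0e-44). In siANKRA2 cells, 3 members had a difference above 0, which for genes that fall is a smaller fall: CDKN2C by 1.20 (adjusted p = 1.0e-14), CDKN1B by 0.80 (2.7e-22) and CDKN2D by 0.80 (0.00016). CDKN3 did not share this. Its difference was -0.11 (95% interval -0.28 to 0.07, adjusted p = 0.45). The interval of CDKN2B, 0.18 to 2.17, lies above 0 but the adjusted p was 0.078. Of all genes, 11.4% were called with a difference above 0 and 12.5% below 0, against 3 and 1 of the 7 members.

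In siRFXANK cells CDKN2C, CDKN2D, CDKN1B and CDKN2B had differences that did not pass the test. The values were 0.03 for CDKN2C (95% interval -0.24 to 0.30), -0.02 for CDKN2D (-0.33 to 0.29) and 0.07 for CDKN1B (-0.08 to 0.21), and for CDKN2B 0.39 with a wide interval (-0.61 to 1.39). CDKN3 fell less than in siControl cells, by 0.48 (95% interval 0.33 to 0.63, adjusted p = 1.1e-08), and CDKN1C had a difference of -0.62 (adjusted p = 0.0053). Together 1 member was called above 0 and 2 below 0, where 11.6% and 9.64% of all genes were called. A difference between the siRFXANK and the other samples that is equal under both treatments cancels in this test, and whether it was equal was not tested.

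The next comparison asks what siANKRA2 does to these genes without Nutlin-3a. CDKN1A stood at 4.12 times its siControl level under DMSO (95% interval 3.91 to 4.35, DESeq2 adjusted p deposited as 0), and the 6 other members were all lower. CDKN3 was 3.25-fold lower, CDKN2C 3.14-fold, CDKN2D 2.38-fold, CDKN1B 2.10-fold, CDKN2B 1.79-fold (DESeq2 adjusted p = 0.031) and CDKN1C 1.25-fold (0.044). Thus 1 member was called higher and 6 lower, where 24.3% and 24.5% of all genes were called. Several of these levels lay close to those of siControl cells under Nutlin-3a. As shares of the siControl level under DMSO, CDKN1B was at 0.476 after siANKRA2 and 0.495 after Nutlin-3a, CDKN2D at 0.420 and 0.456, and CDKN3 at 0.307 and 0.322, and none of these pairs differed by more than 1.96 times an upper bound of its SE. CDKN2C was at 0.318 and 0.202. CDKN1A was at 4.12 and 9.62 and thus did not reach the treated siControl level.

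Under Nutlin-3a, siANKRA2 changed most members less. CDKN1A was 1.15-fold higher than in siControl cells (95% interval 1.09 to 1.21, DESeq2 adjusted p = 8.1e-07). CDKN2C and CDKN2D were each 1.37-fold lower and CDKN1B 1.20-fold lower. CDKN3 was the exception, 3.51-fold lower than in siControl cells (95% interval of the log2 fold change -1.95 to -1.67, DESeq2 adjusted p = 1.5e-145). CDKN1C and CDKN2B did not pass the test. Here 1 member was called higher and 4 lower, where 24.6% of all genes were called higher and 25.5% lower. The siControl and siANKRA2 comparisons are built from the same 4 groups. The response difference of CDKN1A (-1.847) is therefore its siANKRA2 effect under Nutlin-3a (0.197) minus that under DMSO (2.044). It is not a separate measurement.

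siRFXANK left CDKN1A at 0.961 of the siControl level under DMSO (95% interval 0.908 to 1.02, DESeq2 adjusted p = 0.27). Under Nutlin-3a it was 1.84-fold lower (log2 fold change -0.88, SE 0.04, DESeq2 adjusted p = 8.4e-114). The other called members were higher. CDKN2D was 1.83-fold higher under DMSO and 1.81-fold under Nutlin-3a, CDKN3 1.26-fold and 1.76-fold, CDKN1B 1.21-fold and 1.27-fold, and CDKN2C 1.19-fold and 1.21-fold. CDKN1C was 1.86-fold higher under DMSO (DESeq2 adjusted p = 2.6e-11) and did not pass the test under Nutlin-3a (fold 1.21, DESeq2 adjusted p = 0.084). Under DMSO 5 members were called higher and 0 lower by DESeq2, and 0 were lower at an unadjusted p under 0.05 too, where 20.9% and 21.2% of all genes were called. Under Nutlin-3a 4 were called higher and 1 lower, where 19.8% and 19.6% were called. CDKN2B was called in neither.

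**Figure D3:**
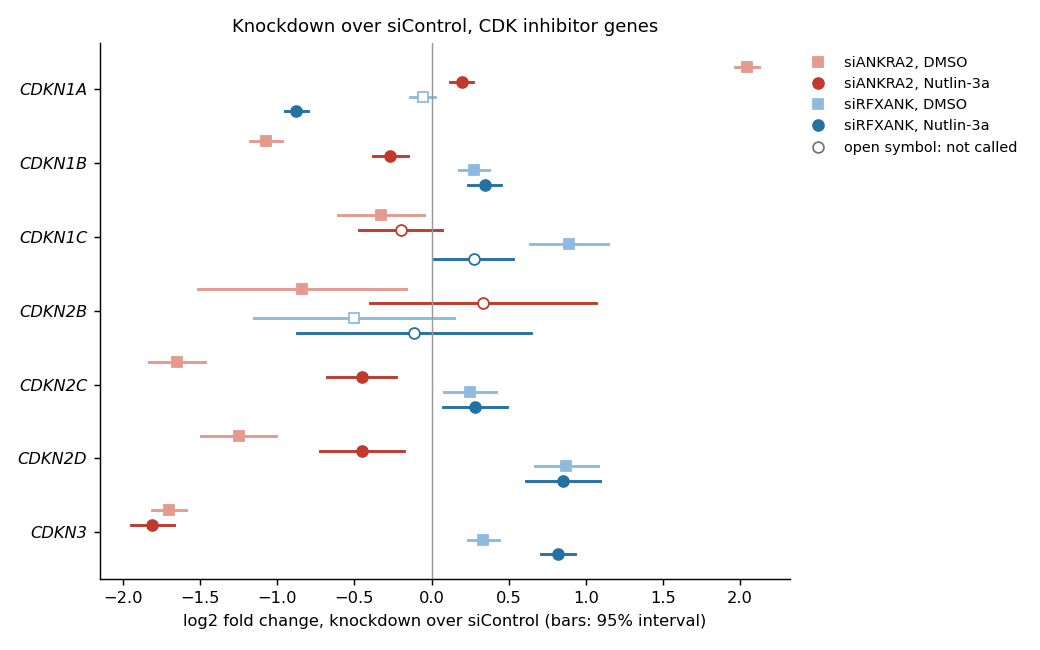
Log2 fold change of siANKRA2 or siRFXANK over siControl for each member, under DMSO (squares) and Nutlin-3a (circles), with bars for the 95% interval and open symbols where the adjusted p was 0.05 or more. CDKN3 lies at -1.70 and -1.81 after siANKRA2 and at 0.34 and 0.82 after siRFXANK, and CDKN1A at 2.04, 0.20, -0.06 and -0.88 in the order of the legend.

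Ordered by level, CDKN1A was lowest in siRFXANK and siControl cells under DMSO, whose difference was within 1.96 SE. It then rose through siANKRA2 cells under DMSO, siRFXANK, siControl and siANKRA2 cells under Nutlin-3a, and each of these steps exceeded 1.96 SE. CDKN3 was lowest in siANKRA2 cells under Nutlin-3a, at 0.0918 of the siControl DMSO level, and highest in siRFXANK cells under DMSO, at 1.26. Of its neighbours in this order, siANKRA2 cells under DMSO and siControl cells under Nutlin-3a lay within 1.96 times an upper bound of the SE. CDKN1B, CDKN2C and CDKN2D had the same lowest and highest groups as CDKN3. For CDKN1B the same pair of groups lay within 1.96 times this bound. For CDKN2D so did this pair and that of siRFXANK cells under Nutlin-3a and siControl cells under DMSO. These pairs differ in both siRNA and treatment. Their SE can be smaller than the bound, so they may differ by more than 1.96 SE and are not shown to be alike. For CDKN2C each step in the order exceeded 1.96 SE. CDKN1C spanned only 0.797 to 1.86 of its siControl DMSO level, and no step of CDKN2B exceeded 1.96 SE. These steps are not adjusted for their number.

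CDKN1A was compared with other established direct p53 targets, of which 19 of 20 listed genes were tested. Nutlin-3a raised all 19 in siControl cells, with a median log2 fold change of 1.97, and CDKN1A with 3.27 was below GDF15 (4.36), MDM2 (3.38) and TP53INP1 (3.34) only. Its position in siANKRA2 cells under DMSO was less usual for the list. The listed genes had a median log2 fold change of 0.22 for siANKRA2 over siControl in DMSO, with 10 called higher and 4 lower. Of all genes, 24.3% were called higher and 24.5% lower. GDF15, a secreted cytokine, stood at 2.35 and CDKN1A at 2.04, and the next was PHLDA3, an inhibitor of AKT, at 0.99. Under Nutlin-3a, 15 of the 19 were lower in siANKRA2 than in siControl cells and 4 higher (median -0.43). Of all genes, 25.5% were called lower and 24.6% higher. MDM2 was 2.46-fold lower, whereas CDKN1A was 1.15-fold higher. The response difference of CDKN1A in siANKRA2 cells (-1.85) was lower than that of each of the 19 (median -0.84, range -1.71 for GDF15 to -0.06). Differences between CDKN1A and these genes were not tested. In siRFXANK cells the response difference of CDKN1A was also the lowest (-0.82, against a median of -0.32). Its 95% interval, -0.93 to -0.71, includes TP53INP1 at -0.75. The log2 fold change of CDKN1A for siRFXANK over siControl in Nutlin-3a was the lowest too (-0.88, against a median of 0.09). AEN, the listed gene with the smallest rise in siControl cells (0.51), did not pass the test in siANKRA2 cells.

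**Figure D4:**
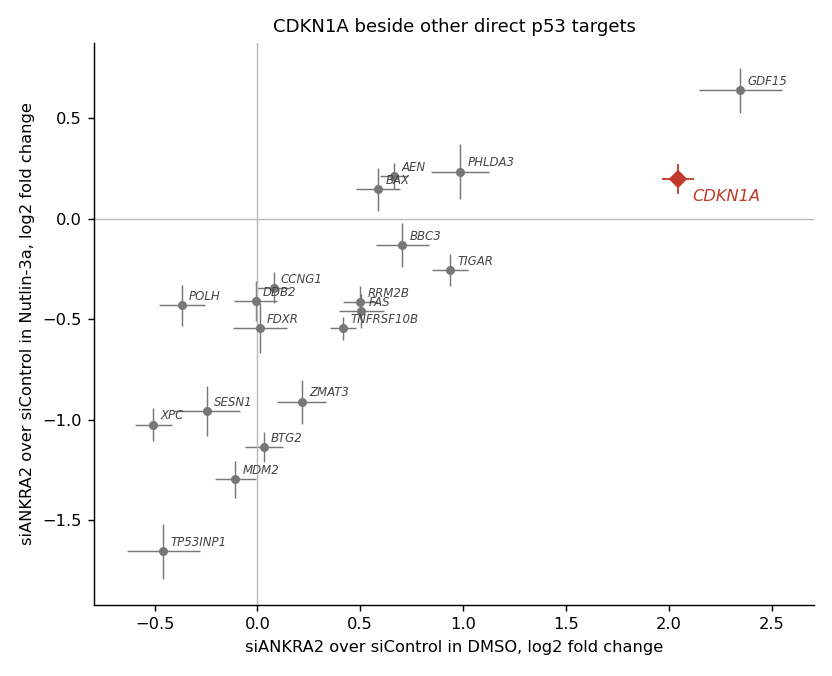
Log2 fold change of siANKRA2 over siControl under DMSO (horizontal) and under Nutlin-3a (vertical) for CDKN1A (diamond) and 19 other direct p53 targets (circles), with bars of 1.96 SE. CDKN1A lies at 2.04 and 0.20, next to GDF15 at 2.35 and 0.64, while MDM2 lies at -0.11 and -1.30.

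Among the listed factors known to act upstream of the members, KLF6 had the largest rise under Nutlin-3a in siControl cells (log2 fold change 0.45) and EZH2, a Polycomb methyltransferase, the largest fall (-1.31).

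CDKN3 was set beside 12 mitotic genes of the class it belongs to. All 12 fell under Nutlin-3a in siControl cells (median log2 fold change -1.73, from -1.39 for CCNB2 to -2.01 for AURKB), and CDKN3 with -1.64 lay among them. After siANKRA2 all 12 were lower in DMSO (median -0.93) and in Nutlin-3a (median -0.63), where 24.5% and 25.5% of all genes were called lower. CDKN3 had a lower value than each of them in both, at -1.70 and -1.81, and was nearest to CDC25C (-1.56) in DMSO and PLK1 (-1.79) in Nutlin-3a. The 95% interval of CDKN3 in Nutlin-3a, -1.95 to -1.67, includes the value of PLK1, and differences between these genes were not tested. For 7 of the 12 the Nutlin-3a response was smaller in siANKRA2 cells and for 1, PLK1, it was larger. CDKN3 did not differ past the threshold. Of all genes, 11.4% had a difference called above 0 and 12.5% below 0. In siRFXANK cells the fall was smaller than in siControl cells for 12 of 12 (median difference 0.61) and for CDKN3 (0.48). There 11.6% of all genes had a difference called above 0. A fall of these genes in bulk RNA can come from fewer dividing cells or from less RNA in each, which cannot be told apart here.

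**Figure D5:**
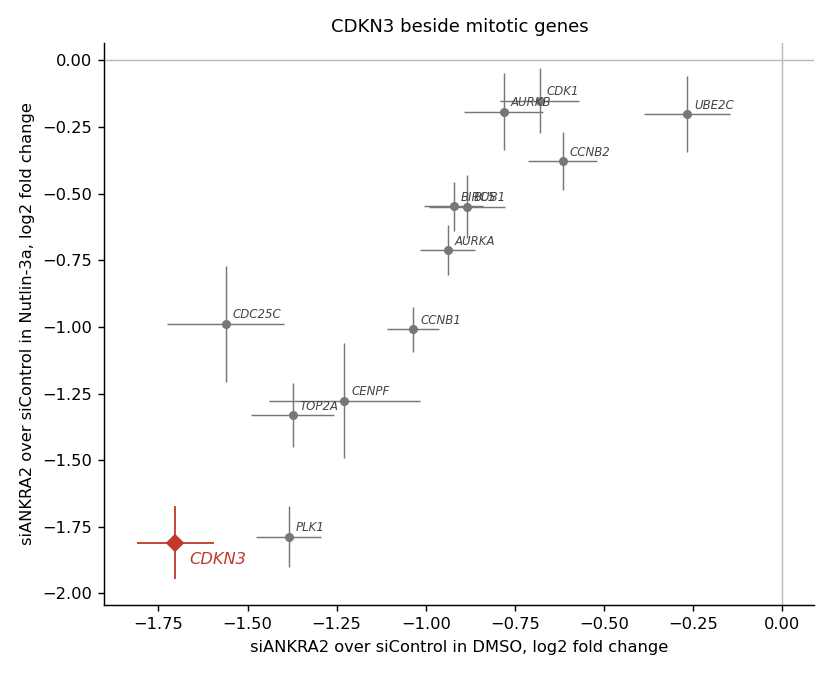
Log2 fold change of siANKRA2 over siControl under DMSO (horizontal) and under Nutlin-3a (vertical) for CDKN3 (diamond) and 12 mitotic genes (circles), with bars of 1.96 SE. CDKN3 has the lowest value on both axes, at -1.70 and -1.81, with PLK1 (-1.79) inside its interval on the vertical axis. All 12 mitotic genes lie below 0 on both.

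The CDKs and cyclins that the inhibitors bind moved in both directions. Under Nutlin-3a in siControl cells 3 of 11 rose and 8 fell (median -0.91), where the largest rise was that of cyclin D2 (CCND2, 1.62) and the largest fall that of cyclin E2 (CCNE2, -2.60). Cyclin D1 (CCND1) and CDK6 were the others that rose. Of the partners of INK4 proteins, CCND1, CCND2 and CDK6 thus rose, while CDK4 (-0.35) and CCND3 (-0.47) fell. In siANKRA2 cells 1 of 11 rose and 8 fell, and in siRFXANK cells 3 rose and 8 fell. Of all genes, 21.9% were called higher and 21.2% lower in siControl cells. The shares were 15.5% and 17.0% in siANKRA2 cells and 22.8% and 22.5% in siRFXANK cells. Of 8 pocket proteins and E2F factors, 6 fell in siControl cells and 1 rose. E2F2 fell most (-3.15), and RBL2 was the one that rose (0.24). After siANKRA2 in DMSO, 8 of 8 were lower (median -0.69), where 6 of 7 members and 24.5% of all genes were called lower. Of 8 parts of ubiquitin ligases that degrade CIP/KIP proteins, 6 fell under Nutlin-3a in siControl cells. DTL, which directs p21 to degradation, fell most (-2.30), and DDB1 was at 0.03. In siANKRA2 cells under Nutlin-3a, 5 of the 8 were higher than in siControl cells and 2 lower (median 0.40). Of all genes, 24.6% were called higher and 25.5% lower there. Whether these changes bear on p21 was not tested.

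Neighbouring genes bear on how single members can be read. DINOL lies on the opposite strand within CDKN1A and shares 146 bases with its exons. Its deposited mean was 4.01 normalized counts, and whether the counting used strand is not given in the sources used here. DINOL was called higher under Nutlin-3a in siControl cells (log2 fold change 3.12, DESeq2 adjusted p = 0.0076) and after siANKRA2 in DMSO (2.74, DESeq2 adjusted p = 0.021), as CDKN1A was. In CDKN2B, 4.93% of the longest transcript occurs in transcripts of other genes, CDKN2A among them, while the other tested members share no stretch of 31 bases. MTAP, beside CDKN2A, fell by 0.81 on the log2 scale under Nutlin-3a in siControl cells. KCNQ1OT1, the noncoding RNA of the imprinted domain that holds CDKN1C, did not pass the test (-0.36). In siRFXANK cells, where CDKN1C fell under Nutlin-3a, KCNQ1OT1 rose (0.95), with a response difference of 1.31 against -0.62 for CDKN1C. CDKN1C was not called in the other transfections, and its fall here was lost with summed squared errors. Whether these genes are linked was not tested.

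The genes whose 5 levels relative to siControl DMSO were nearest to a member were searched among 13103 genes with a deposited mean of at least 100, by the root mean square difference on the log2 scale. For CDKN1A these were GALNT5 (0.22), RRAD (0.33) and LPXN (0.41), which encode a glycosyltransferase, a small GTPase and a focal adhesion protein. GALNT5 stood at 2.03 after siANKRA2 in DMSO and at 3.04 in siControl cells under Nutlin-3a. For CDKN3 they were PSRC1 (0.14), C21orf58 (0.20) and NDC80 (0.27), of which PSRC1 and NDC80 encode proteins of the mitotic spindle and kinetochore. For CDKN2C they were SPC25 (0.30), another kinetochore gene, ASF1B (0.31), a histone chaperone, and NUSAP1 (0.31), a spindle protein. The levels of CDKN1B lay nearest to those of EFCAB11 (0.07), CARHSP1 (0.11) and TBC1D31 (0.13). CDKN1C was nearest to CACFD1 (0.09), C6orf203 (0.10) and PMVK (0.10), and CDKN2D to HIST1H2BC (0.19), CEP57L1 (0.24) and RHNO1 (0.29). HIST1H2BC belongs to a family of near-identical histone genes and its values are uncertain. CDKN2B was below the minimum mean and was not searched. A small distance describes 6 group means and nothing else the genes share.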

How the data were processed

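RNA was measured in U2OS cells, 6 groups of 3 samples, grouped by their labels. The authors deposited 6 comparison tables made with DESeq2. The deposited mean of each gene is a normalized count over the samples of their fit, treated here as a signal value. For ANKRA2 it was 31568, above any group mean recovered for that gene. The fit thus appears to hold samples beyond the 18, and the spread behind the p-values comes from that fit. For the members the deposited mean was 0.75 to 1.05 times the mean recovered over the groups. The deposited fold changes and standard errors are on the log2 scale. The deposited p-values come from a 2-sided Wald test, and adjusted p-values from the Benjamini-Hochberg method. The submitters' processing notes name DESeq2 1.20.0, featureCounts 1.6.5, Trimmomatic 0.39 and hg38. The aligner, annotation and use of strand are not given in the sources used here. The paper given with the series does not describe this experiment.

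In the 4 comparisons among siControl and siANKRA2 groups, the log2 fold changes added up with an error of at most 1.4e-14 over 22738 genes. The squared standard errors added up with a relative error of at most 5.3e-12, so sums and differences within these 4 are exact. The siRFXANK comparisons form no such loop and were not covered by this check. The derived siRFXANK response takes them to come from the same fit. The siRFXANK response was siControl response plus siRFXANK effect in Nutlin-3a minus that in DMSO, and its squared error was the sum of those of the siRFXANK effects minus that of the siControl response. Response differences had summed squared errors. Both were tested with a Wald test over all genes. Calls used an adjusted p under 0.05, and intervals (95%) are 1.96 SE. Group means were recovered by taking a group's squared error as (1/mean + dispersion) over 3 times the squared natural log of 2, by least squares over the 6 comparisons. This missed the members' squared errors by at most 1.58%. For pairs of groups that differ in both siRNA and treatment an upper bound of the SE was used. No SE was computed for them from the recovered means. Scripts ran in Python 3.11.15 with SciPy 1.17.1 and were tested on simulated data. Of 26702 gene IDs, 99.8% were in GENCODE 29.

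The genes named are the members, MDM2, ANKRA2, RFXANK and RFX7, the 3 nearest genes of each member with a mean of at least 100, and from the lists the largest and smallest change under Nutlin-3a in siControl cells. Other genes were named after their values were seen: GDF15, TP53INP1 and PHLDA3 beside CDKN1A, CDC25C and PLK1 beside CDKN3, CCND1, CCND3, CDK4, CDK6, DINOL, KCNQ1OT1, and the single genes of a count. VIM, COL1A1, KRT8, KRT18, CDH1 and KRT19 were named from longer marker lists without a rule set beforehand. The members and lists were chosen with earlier results of these data known. Alternatives were a threshold of 0.01, an absolute log2 change of at least 1, minimum means of 10 or 100, centring on the median of all genes, other error sums or tables for the derived values, another scale for the recovered means and another measure of likeness. Of the genes that the rule names, 1 is not reported here.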

Additional observations from a re-analysis of the deposited data

Results flagged for a closer look

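Tested on the difference itself, 4 members responded to Nutlin-3a differently in siANKRA2 than in siControl cells, and 3 in siRFXANK cells. Of all genes, 11.4% and 12.5% were called above and below 0 in siANKRA2 cells, and 11.6% and 9.64% in siRFXANK cells. In siANKRA2 cells the difference in log2 fold change was -1.85 for CDKN1A, 0.80 for CDKN1B, 1.20 for CDKN2C and 0.80 for CDKN2D. In siRFXANK cells it was -0.82 for CDKN1A, -0.62 for CDKN1C and 0.48 for CDKN3. The responses behind these values were 3.27 and 1.42 for CDKN1A in siControl and siANKRA2 cells, -2.31 and -1.11 for CDKN2C, and -1.64 and -1.15 for CDKN3 in siControl and siRFXANK cells. The cause of these differences was not tested.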

How the results depend on the processing

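No paired analysis was possible because the files give comparisons without values for single libraries. Fits without 1 replicate, with another count model or with filters on counts were not run either. Of 63 values, 7 members in 9 comparisons, none changed direction under an alternative. Centring on the median of all genes left all 63 calls as they were. A threshold of 0.01 removed 3 calls, CDKN1C and CDKN2B for siANKRA2 in DMSO and CDKN2C for siRFXANK in Nutlin-3a. A minimum mean of 10 or of 100 added 1, CDKN2D under Nutlin-3a in siANKRA2 cells. Summing all 3 squared errors removed the fall of CDKN1C in siRFXANK cells. Requiring also an absolute log2 change of at least 1 removed 24 calls by its construction. It left 1 member for siANKRA2 in Nutlin-3a, 0 for siRFXANK in DMSO, 0 for siRFXANK in Nutlin-3a, and 2 and 0 for the response differences in siANKRA2 and siRFXANK cells. On the deposited mean, the CDKN1A level of siControl cells under DMSO was 5908 in place of 5633, and the largest shift was that of CDKN2B, at 28.4 in place of 37.9. By the largest difference in place of the root mean square, 1 of 3 nearest genes was the same for CDKN1C and for CDKN2C, 2 for CDKN2D and CDKN3, and 3 for CDKN1A and CDKN1B. The depth of the libraries is unknown.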
